A study of Homo sapiens with 66 samples.

Results

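A group of 10 genes of the G1 phase of the cell cycle were followed in human multiple myeloma cells exposed to inhibitors of prolyl-tRNA synthetase. They comprised the D-type cyclins CCND1, CCND2 and CCND3, the E-type cyclins CCNE1 and CCNE2, the kinases CDK4 and CDK6, and the inhibitors CDKN1B (p27), CDKN2C (p18) and CDKN2D (p19). The genes were chosen by name, and they and the gene lists used below were chosen with earlier results of these data known. Of the genes, 10 of 10 were found among the 20167 genes of the deposited count table through their Ensembl identifiers. The table held 66 RNA-seq libraries in 22 groups of 3.

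A wild-type line and a carfilzomib-resistant line were profiled. AMO1 is a myeloma line that received DMSO (the solvent control), NCP26, NCP22, halofuginone (HFG), halofuginol or the proteasome inhibitor carfilzomib (CFZ), and L363-CFZr is a carfilzomib-resistant subline of the myeloma line L363 that received the same agents except CFZ. Both were sampled at 6 h and 24 h, which gave 12 AMO1 groups and 10 L363-CFZr groups, and every inhibitor of the synthetase was used at 1 µM. NCP22 is an earlier compound of the series that led to NCP26, and halofuginol is an alcohol analogue of HFG. Each line stands for 1 established culture, L363-CFZr was compared with AMO1 and not with its parent line, and nothing in the labels says that the 3 replicates of a group came from separate cultures, so the p-values measure the spread between these libraries.

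Cells decide in G1 whether to copy their DNA. D-type cyclins bind CDK4 and CDK6 and start the phosphorylation of the retinoblastoma protein, which releases the E2F transcription factors. E2F in turn drives genes of DNA replication and the E-type cyclins, whose partner kinase is CDK2. CDKN2C and CDKN2D belong to the INK4 family, which binds CDK4 and CDK6 in place of a cyclin, and CDKN1B belongs to the CIP/KIP family, which binds complexes of cyclin and kinase and acts mainly on CDK2. Myelomas commonly express one D-type cyclin far above the others. Prolyl-tRNA synthetase loads proline onto its tRNA, and a shortage of charged tRNA activates the kinase GCN2 and the amino acid response led by ATF4.

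Library totals ran from 1666325 to 5761682 counts in AMO1 (median 3009496) and from 2487872 to 6596543 in L363-CFZr (median 3562784.5). Values are given as CPM, the count of a gene relative to its library total after the totals were scaled by the trimmed mean of M-values, and fold changes are on the log2 scale with the standard error (SE) of edgeR's quasi-likelihood fit and p-values adjusted by Benjamini-Hochberg over all genes tested in that comparison. A gene was called at an adjusted p under 0.05. In both lines 10 of 10 plasma cell markers had a mean of at least 5 CPM, with a summed level of 4789 to 10670 CPM in AMO1 and of 4750 to 9730 CPM in L363-CFZr. A list of B cell markers had 1 of 6 such genes in each line, with a summed level of 26.4 to 77.9 CPM in AMO1 and of 4.93 to 34.7 CPM in L363-CFZr. The lists for T and NK cells, myeloid cells, erythroid cells and fibroblasts or epithelium had 0 such genes. Each column name of the deposited count table ends in a number. Read with the line and the number in the sample title, it split the libraries into 3 sets of 22. They are here called A, B and C, and the labels do not describe them. All AMO1 libraries of 6 h and the AMO1 DMSO libraries of 24 h belonged to set A, whereas the other AMO1 libraries of 24 h belonged to set B except the first CFZ replicate. In L363-CFZr the DMSO and NCP26 libraries of 6 h were in set B, NCP22 of 6 h had 2 libraries in set B and 1 in set C, and HFG and halofuginol of 6 h and all libraries of 24 h were in set C. Treatment against DMSO at 24 h in AMO1, and HFG or halofuginol against DMSO at 6 h in L363-CFZr, therefore also compared different sets, and the 2 cannot be told apart there. Per the study's methods, which describe AMO1, samples of 6 h were stored frozen overnight and samples of 24 h were kept on ice. Time and storage therefore cannot be told apart there either, and storage of the L363-CFZr samples is not described. In L363-CFZr the DMSO libraries of 6 h and of 24 h also came from different sets. The L363-CFZr DMSO library of 24 h, replicate 2, stood apart from its partners for several of the genes, with CDK6 at 823 CPM against 432 and 436. So did the AMO1 CFZ library of 24 h, replicate 2. It had CDK6 at 565 CPM against 412 and 392, and CCND2 at 600.3 against 372 and 366.

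**Figure D1:**
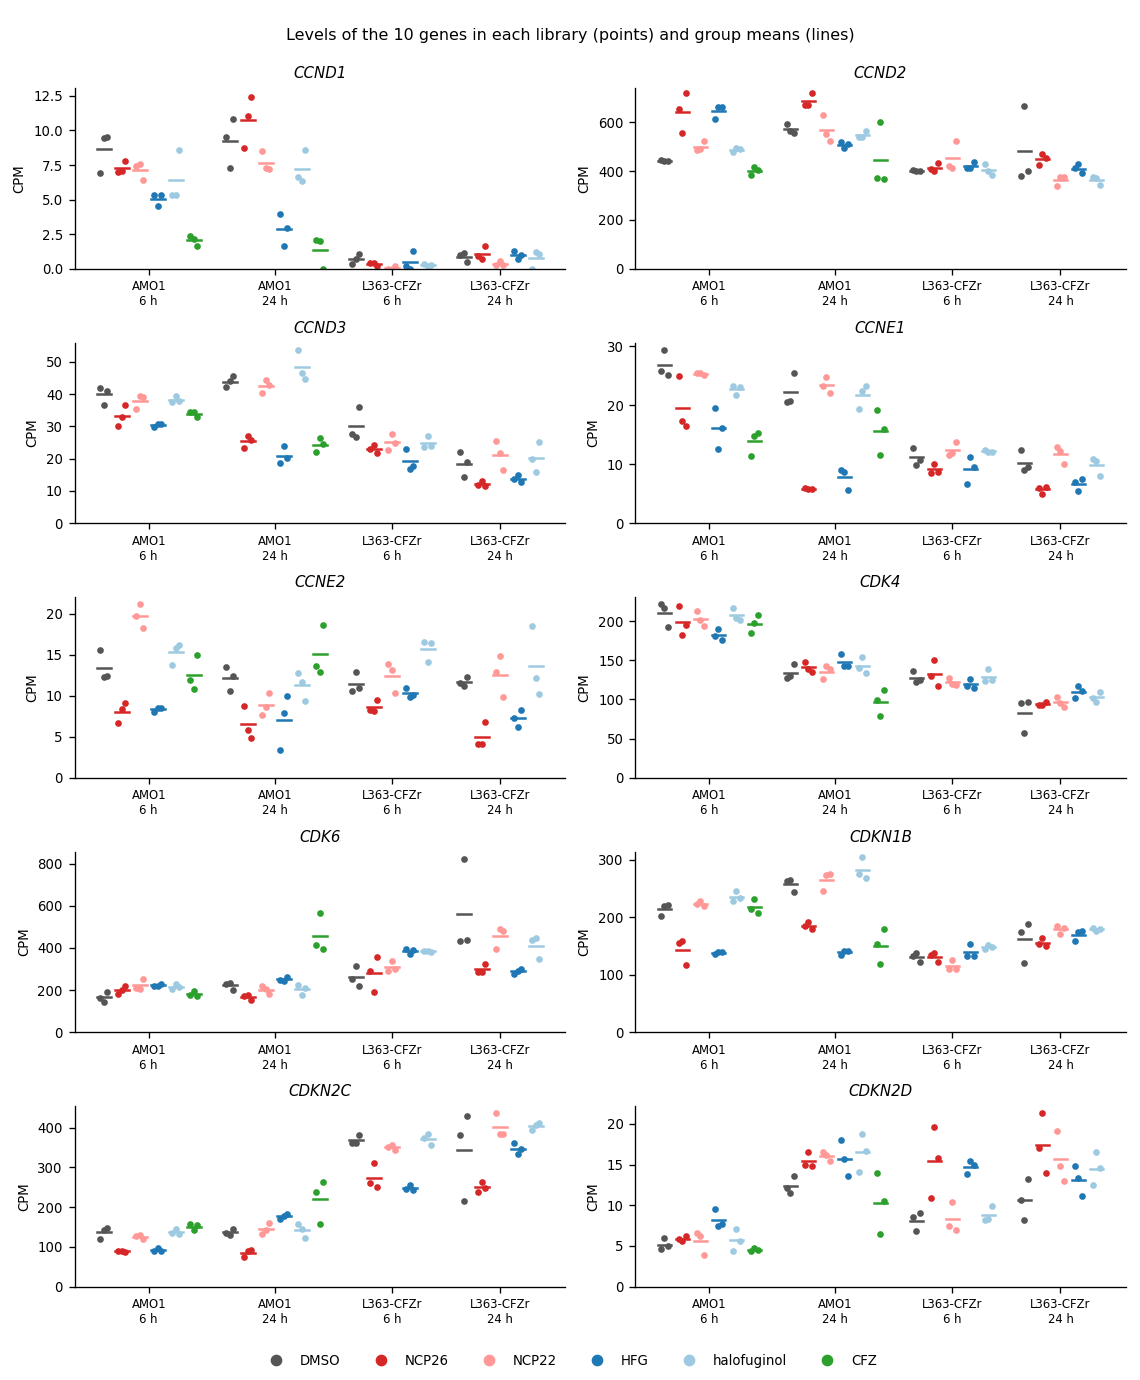
Level of each of the 10 genes in every library, in CPM on linear axes that start at 0, with a point per library, a line at each group mean and the compound given by colour. CCND2, CDK4, CDK6, CDKN1B and CDKN2C were the abundant genes in AMO1, and CCND1 lay between 0 and 1.63 CPM in the L363-CFZr libraries.

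In untreated cells the 10 genes differed widely in abundance. Per kilobase of the canonical transcript, the level in AMO1 with DMSO at 6 h was highest for CDKN2C at 138 ± 14.3 CPM per kb (SD, n = 3), followed by CDK4 at 113 ± 8.57, CDKN1B at 89.0 ± 4.28 and CCND2 at 68.0 ± 0.320. The next were CCND3 at 19.7 ± 1.38, CDK6 at 14.3 ± 2.13 and CCNE1 at 13.7 ± 1.17, and the lowest were CCNE2 at 5.00 ± 0.693, CDKN2D at 3.63 ± 0.482 and CCND1 at 2.04 ± 0.350 CPM per kb. CDK6 and CCNE1 did not differ beyond their spread in this order. The places of CDKN2C and CDKN1B depended on the transcript used. The canonical transcript of CDKN2C has 995 nucleotides and its longest 2904, those of CDKN1B have 2411 and 4335, and with the longest the levels were 47.1 CPM per kb for CDKN2C and 49.5 for CDKN1B, both below CCND2 at 64.5.

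Across the 18 comparisons of a compound with DMSO, 50 of 172 tests of these genes were called, 19 higher and 31 lower. Over all genes in AMO1, NCP26 gave 18.1% higher and 19.2% lower at 6 h and 29.8% and 30.9% at 24 h. HFG gave 27.7% and 26.6%, then 28.5% and 30.5%, and CFZ 14.1% and 12.8%, then 13.1% and 14%. In L363-CFZr NCP26 gave 9.81% and 8.99%, then 2.71% and 4.38%, and HFG 26.9% and 27.5%, then 0.592% and 0.573%. In AMO1 at 6 h the calls were 4 of 10 with NCP26 (37.3% of all genes tested were called there), 3 of 10 with NCP22 (13.5% of all genes), 9 of 10 with HFG (54.3%), 1 of 10 with halofuginol (3.62%) and 2 of 10 with CFZ (26.9%). In AMO1 at 24 h they were 7 of 10 with NCP26 (60.7%), 0 with NCP22 (0%), 8 of 10 with HFG (59.0%), 0 with halofuginol (0.183%) and 6 of 10 with CFZ (27%). The AMO1 counts include CCND1 with CFZ at both times and with HFG at 24 h, where it passed the filter on low counts through DMSO. Those CCND1 calls are not independent of that filter. CCND1 did not pass the filter on low counts in L363-CFZr, which left 9 genes there. At 6 h in that line the calls were 2 of 9 with NCP26 (18.8%), 0 with NCP22 (0%), 4 of 9 with HFG (54.5%) and 3 of 9 with halofuginol (25.8%), and at 24 h they were 1 of 9 with NCP26 (7.09%), 0 with NCP22 (0%), 0 with HFG (1.17%) and 0 with halofuginol (0%). The called share of the 10 genes stood furthest above that of all genes with HFG at 6 h and CFZ at 24 h in AMO1, the most extreme of 18 comparisons. With HFG there the calls of CCND1, CCND3, CCNE2 and CDKN2D could each be lost by leaving out 1 library. The same held for CDK4 and CDKN2C with CFZ, and the CCND1 call with CFZ depends on the filter. These shares therefore do not single out the genes of the group. The compounds of a line and time shared their 3 DMSO libraries, so these comparisons are not independent of each other. The plasma cell markers moved in the same libraries, with 1 of 10 higher and 7 lower with NCP26 and likewise with HFG in AMO1 at 6 h (medians -0.69 and -0.84), and their part in the results was not tested. Without DMSO replicate 2 in L363-CFZr at 24 h, the calls there were 6 of 9 with NCP26 and 4 of 9 with HFG. The share of all genes called in those refits is not given here, so these counts do not single out the genes of the group. Where edgeR called 0 of these genes, 2 had an unadjusted p under 0.05 with NCP22 in AMO1 at 24 h (CCNE2 and CDKN2D), 1 with halofuginol in AMO1 at 24 h (CDKN2D), 2 with NCP22 in L363-CFZr at 6 h (CCND2 and CDK6) and 3 with HFG in L363-CFZr at 24 h (CCNE1, CCNE2 and CDK6). For NCP22 and halofuginol in L363-CFZr at 24 h that number was 0. DESeq2 called 0 of the genes in each of these comparisons except HFG in L363-CFZr at 24 h, where it called 1 (CDK6).

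**Figure D2:**
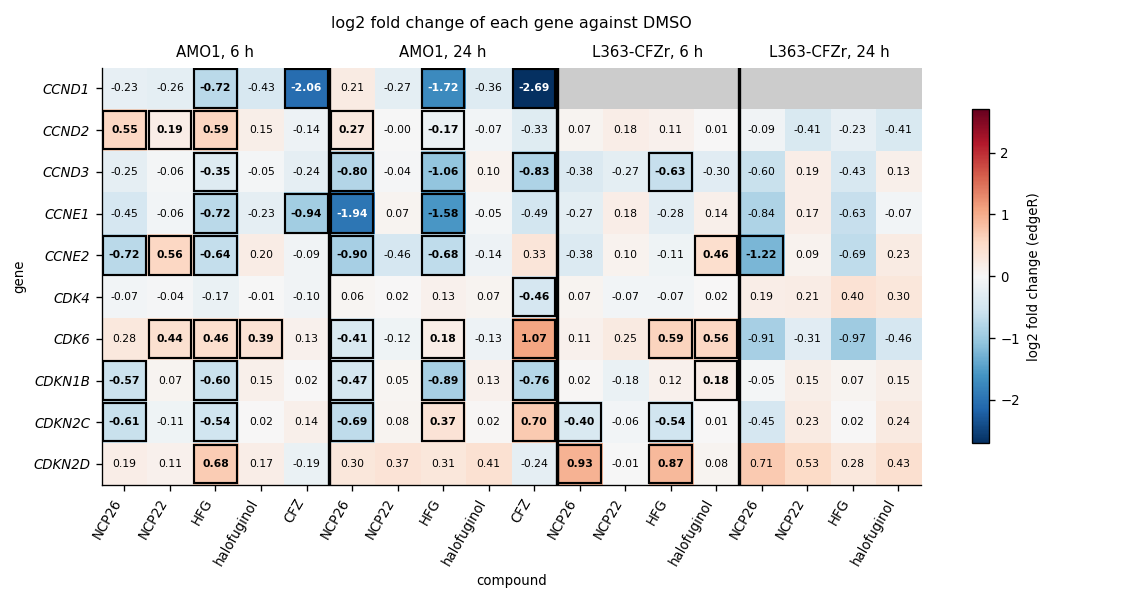
log2 fold change of each gene (rows) against DMSO for each compound, line and time (columns), with blue for lower and red for higher values, framed bold cells for an adjusted p under 0.05 by edgeR, and grey for genes not tested. HFG and NCP26 in AMO1 held 28 of the 50 framed cells.

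Calls by gene were uneven. CDK6 was called in 8 of 18 comparisons (7 higher, 1 lower), CCNE2 and CDKN2C in 7 each (2 higher and 5 lower for both), CDKN1B in 6 (1 higher, 5 lower), CCND2 in 5 (4 higher, 1 lower), CCND3 in 5 (all lower), CCNE1 in 4 (all lower), CCND1 in 4 of its 10 (all lower), CDKN2D in 3 (all higher) and CDK4 in 1 (lower). The CCND1 calls with CFZ, and with HFG at 24 h, are not independent of the filter on low counts, as given with that gene. Its call with HFG at 6 h was lost without 1 of several libraries. In RNA from a whole culture, a change in the share of cells in a phase and a change of RNA per cell cannot be told apart.

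Among the D-type cyclins in AMO1, CCND2 rose with NCP26 and HFG at 6 h, while CCND3 fell with NCP26, HFG and CFZ at 24 h. CCND1 read lower with HFG and CFZ. Except with HFG at 6 h, the CCND1 calls are not independent of the filter on low counts. CCND2 (ENSG00000118971, chr12:4269771-4305353 of GRCh38, forward strand) was the dominant D-type cyclin in both lines. In AMO1 at 6 h it read 444, 440.2 and 441 CPM with DMSO, 654, 555 and 719.6 with NCP26 and 612, 664 and 663 with HFG. Both treated groups lay wholly above DMSO. The log2 fold change was 0.55 (SE 0.11, edgeR adjusted p = 0.00215) with NCP26 and 0.59 (SE 0.061, edgeR adjusted p = 1.13e-06) with HFG, and no single library removed either call. NCP22 gave a much smaller rise of 0.19 (SE 0.061, edgeR adjusted p = 0.0423), which was lost without any 1 of 5 of its 6 libraries. With CFZ the values were 385, 417 and 404 CPM, all below DMSO, and the difference of -0.14 (SE 0.062, edgeR adjusted p = 0.0989) was not called.

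At 24 h NCP26 and HFG moved CCND2 in opposite directions in AMO1. DMSO read 593, 564 and 556 CPM, NCP26 672, 669.9 and 719.8 and HFG 518, 496 and 510.2. The log2 fold changes were 0.27 (SE 0.043, edgeR adjusted p = 3.56e-06) and -0.17 (SE 0.045, edgeR adjusted p = 0.00393), and NCP26 stood above HFG in the same set by 0.42 (SE 0.043, edgeR adjusted p = 2.61e-07). With a term for the set in a fit of all AMO1 groups, the NCP26 value against DMSO became -0.14 and was not called, and in a fit of all AMO1 groups without that term neither value was called. That term rests on the CFZ libraries of 24 h alone, the only group with libraries in both sets, where CCND2 read 372, 600.3 and 366 CPM and only the first value came from set A. In L363-CFZr the gene was called in 0 of 8 comparisons with DMSO by edgeR, at fold changes of -0.41 to 0.18.

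CCND3 (ENSG00000112576, chr6:41934934-42050357, reverse strand) fell at 24 h in AMO1 with 3 of the 5 compounds. The libraries read 42.1, 43.9 and 45.5 CPM with DMSO, 23.4, 27.02 and 25.8 with NCP26, 18.6, 24.0 and 20.2 with HFG and 22.0, 26.5 and 24.5 with CFZ. The 9 treated libraries all lay below the lowest DMSO value. The log2 fold changes were -0.80 (SE 0.11, edgeR adjusted p = 3.29e-07) with NCP26, -1.06 (SE 0.12, edgeR adjusted p = 7.37e-07) with HFG and -0.83 (SE 0.13, edgeR adjusted p = 0.00275) with CFZ, and none of them was lost when a library was left out. NCP22 and halofuginol, in set B like NCP26 and HFG, had means of 42.4 ± 2.04 and 48.3 ± 4.75 CPM (SD, n = 3) beside 43.8 ± 1.66 for DMSO. At 6 h HFG alone was called, at -0.35 (SE 0.11, edgeR adjusted p = 0.0161), a call that ended without HFG replicate 3 or DMSO replicate 1. In L363-CFZr HFG lowered CCND3 at 6 h from 27.6, 26.6 and 36.1 to 23.1, 16.8 and 17.7 CPM, a change of -0.63 (SE 0.15, edgeR adjusted p = 0.00102) that was not called with an offset for GC content (-0.28) or a term for the set.

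CCND1 (ENSG00000110092, chr11:69641156-69654474, forward strand) was scarce, with 0 to 54 counts per library in AMO1 and 0 to 6 in L363-CFZr, where 4 libraries had 0 counts. A count of 0 allows up to 3. By fold change CFZ gave the largest fall among the 10 genes, but on 6, 6 and 5 counts at 6 h and 6, 5 and 0 at 24 h. In these fits CCND1 passed the filter on low counts through the DMSO libraries, where it is high. Its falls and calls are not independent of that filter, and their size is uncertain. The same holds for the comparisons that used HFG at 24 h, with 7, 4 and 9 counts, where the other group was the higher one. In AMO1 at 6 h the libraries read 6.93, 9.44 and 9.56 CPM with DMSO and 2.37, 2.17 and 1.63 with CFZ, a log2 fold change of -2.06 (SE 0.34, edgeR adjusted p = 8.48e-05). The ranges were far apart. At 24 h the values were 9.53, 7.31 and 10.8 with DMSO, 2.10, 2.00 and 0 with CFZ and 3.93, 1.65 and 2.98 with HFG, and the fold changes were -2.69 (SE 0.54, edgeR adjusted p = 0.0081) with CFZ and -1.72 (SE 0.33, edgeR adjusted p = 0.000213) with HFG. The HFG call ended with a term for the set. NCP26 did not follow HFG here. Its 3 libraries read 8.75, 11.1 and 12.4 CPM, and NCP26 stood above HFG by 1.92 (SE 0.33, edgeR adjusted p = 0.000108). The smaller fall with HFG at 6 h, -0.72 (SE 0.25, edgeR adjusted p = 0.0212), was not called without DMSO replicate 2 or 3 or HFG replicate 2, nor by DESeq2. LTO1, a neighbouring gene that shares 9.28% of the 31-base words of CCND1, moved the other way, from 11.6 ± 2.43 CPM with DMSO to 21.9 ± 5.86 with HFG at 24 h.

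As a share of the D-type cyclins per kilobase, CCND2 made up 74.7% to 88.8% in the AMO1 libraries (median 79.5%) and 77.3% to 93.4% in the L363-CFZr libraries (median 85.4%). The share in AMO1 at 6 h was 75.8 ± 0.977% (SD, n = 3) with DMSO, 84.4 ± 1.66% with NCP26 and 86.0 ± 0.451% with HFG. At 24 h it was 78.7 ± 1.22% with DMSO, 87.5 ± 0.877% with NCP26, 87.7 ± 1.32% with HFG and 84.3 ± 2.55% with CFZ. In each of these groups all 3 treated libraries lay above all 3 DMSO libraries, but with 3 against 3 an exact permutation test cannot go below p = 0.1.

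**Figure D3:**
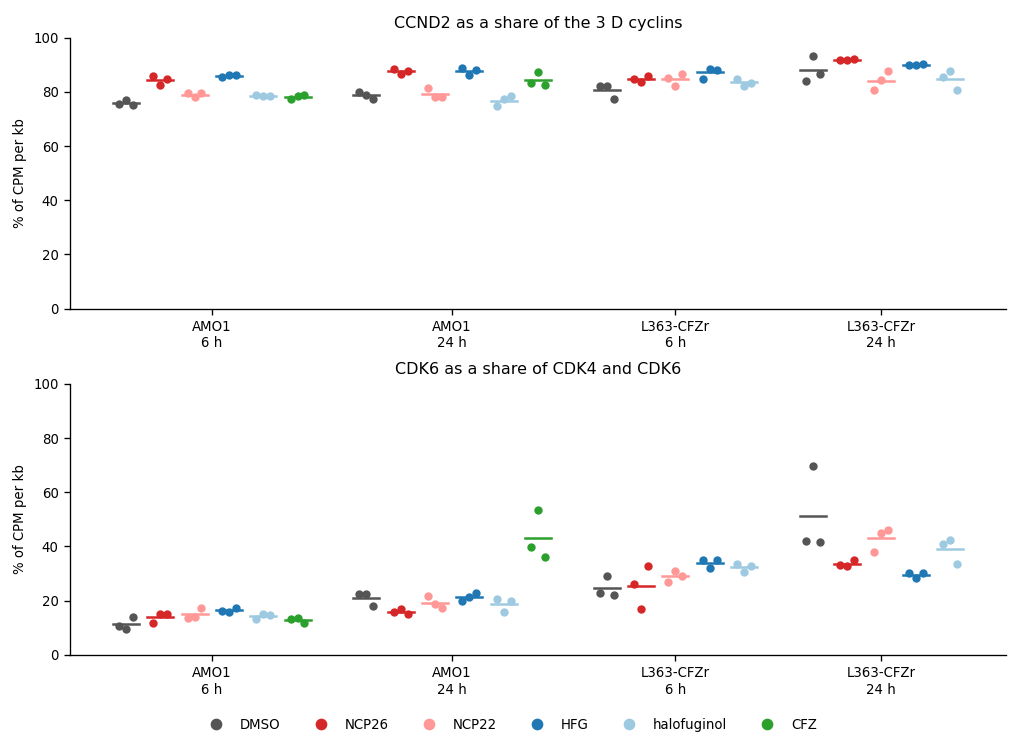
Upper panel, CCND2 as a percentage of the summed CPM per kb of the 3 D-type cyclins, and lower panel, CDK6 as a percentage of CDK4 and CDK6, with a point per library, a line at each group mean and both axes from 0 to 100%. CCND2 stayed between 74.7% and 93.4%, whereas CDK6 ran from 9.54% to 69.8% and was highest in 1 L363-CFZr DMSO library of 24 h.

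Both E-type cyclins fell with NCP26 and with HFG in AMO1 at 24 h. CCNE1 (ENSG00000105173, chr19:29811991-29824312, forward strand) activates CDK2 at the entry into S phase. Its RefSeq promoter window, the 250 bases before the start on chr19:29811741-29811990 of GRCh38.p14, forward strand, is shown because CCNE1 had the largest fall shared by NCP26 and HFG. Capitals would mark one of 4 E2F spellings (TTTCCCGC, TTTCGCGC, TTTGCCGC or TTTGGCGC on either strand), and the window holds none of these exact spellings.

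CCNE1 promoter: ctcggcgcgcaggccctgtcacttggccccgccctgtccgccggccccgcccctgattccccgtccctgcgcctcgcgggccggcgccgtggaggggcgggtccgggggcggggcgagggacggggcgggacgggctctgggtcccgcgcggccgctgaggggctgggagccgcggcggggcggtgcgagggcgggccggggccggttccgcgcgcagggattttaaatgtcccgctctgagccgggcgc

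None of the 12 promoter windows available for the 10 genes held one of these spellings, compared with 979 of 35116 windows of all genes (2.79%) and 7 of 21 windows (33.3%) of a list of E2F-controlled replication genes. Windows for CCND1, CCND2 and CCNE2 were not used here.

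CCNE1 in AMO1 at 24 h read 20.5, 20.8 and 25.4 CPM with DMSO, 5.94, 5.86 and 5.76 with NCP26 and 8.99, 8.68 and 5.63 with HFG. The 6 treated libraries lay below 10 CPM and the 3 DMSO libraries above 20. The log2 fold changes were -1.94 (SE 0.19, edgeR adjusted p = 4.46e-10) with NCP26 and -1.58 (SE 0.21, edgeR adjusted p = 3.54e-06) with HFG, or 3.84 and 2.99 times lower, and both were called under every alternative that was run. At 6 h the fall was smaller. DMSO read 25.8, 29.4 and 25.1, HFG 19.6, 12.5 and 16.1, NCP26 24.99, 17.3 and 16.6 and CFZ 11.4, 14.9 and 15.3 CPM. HFG (-0.72, SE 0.16, edgeR adjusted p = 0.00159) and CFZ (-0.94, SE 0.17, edgeR adjusted p = 0.000209) were called, whereas NCP26 at -0.45 (SE 0.18, edgeR adjusted p = 0.0609) was not, although its 3 libraries lay below the DMSO libraries. NCP22 and halofuginol at 24 h had means of 23.4 ± 1.32 and 21.7 ± 2.01 CPM beside 22.2 ± 2.77 for DMSO.

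In L363-CFZr CCNE1 was not called against DMSO at either time. At 24 h NCP26 read 6.01, 5.03 and 6.18 and HFG 6.94, 5.50 and 7.57 CPM against 12.3, 8.95 and 9.53 with DMSO, and both treated groups lay below DMSO. The differences were -0.84 (SE 0.23, edgeR adjusted p = 0.0748) and -0.63 (SE 0.24, edgeR adjusted p = 0.256). DMSO replicate 2, which stood apart for other genes, was the lowest of its group here. Against NCP22 of the same set the NCP26 value was called, as given with the related compounds.

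CCNE2 (ENSG00000175305, chr8:94879770-94896678, reverse strand) shares 35.97% of its 31-base words with the overlapping gene INTS8, so reads from the shared part could have been split between them. In AMO1 at 6 h it read 15.52, 12.2 and 12.4 CPM with DMSO, 6.64, 8.32 and 9.09 with NCP26, 8.05, 8.53 and 8.44 with HFG and 19.7, 21.1 and 18.2 with NCP22. NCP26 and HFG lay below DMSO and NCP22 above it. The fold changes were -0.72 (SE 0.22, edgeR adjusted p = 0.023), -0.64 (SE 0.20, edgeR adjusted p = 0.0114) and 0.56 (SE 0.17, edgeR adjusted p = 0.0318). Each was lost without at least 1 library, the first without DMSO replicate 1 or NCP26 replicate 1 or 2, the second without DMSO replicate 1 and the third without any 1 of 5 of the 6 libraries, and DESeq2 called neither of the first 2. At 24 h NCP26 gave -0.90 (SE 0.23, edgeR adjusted p = 0.0013) in AMO1 and -1.22 (SE 0.26, edgeR adjusted p = 0.0319) in L363-CFZr, where the libraries read 4.11, 4.07 and 6.83 CPM against 11.6, 11.2 and 12.2. The groups in L363-CFZr did not overlap, but the call ended without any library except DMSO replicate 2. INTS8 at 24 h read 79.8 ± 1.72 CPM with NCP26 and 101 ± 6.70 with HFG in AMO1 against 72.3 ± 3.13 with DMSO, both higher. In L363-CFZr INTS8 read 104 ± 1.07 with NCP26 against 123 ± 19.7 with DMSO. There the NCP26 libraries lay within the DMSO range of 102 to 141 CPM, so INTS8 did not differ beyond its spread. With HFG in AMO1 at 24 h CCNE2 read 3.37, 7.85 and 9.93 CPM, a change of -0.68 (SE 0.27, edgeR adjusted p = 0.0365) that was lost without DMSO replicate 1 or 3 or HFG replicate 1 or 2.

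CDK4 and CDK6 behaved differently from each other. CDK4 (ENSG00000135446, chr12:57747727-57756013, reverse strand) was called in 1 of 18 comparisons with DMSO, whereas CDK6 was called in 8. The CDK4 promoter window, on chr12:57752311-57752560 of GRCh38.p14, reverse strand, is shown because CDK4 was the gene called least often against DMSO. Capitals mark CACGTG, the E-box that MYC and its partners can bind, a motif chosen after this window had been seen.

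CDK4 promoter: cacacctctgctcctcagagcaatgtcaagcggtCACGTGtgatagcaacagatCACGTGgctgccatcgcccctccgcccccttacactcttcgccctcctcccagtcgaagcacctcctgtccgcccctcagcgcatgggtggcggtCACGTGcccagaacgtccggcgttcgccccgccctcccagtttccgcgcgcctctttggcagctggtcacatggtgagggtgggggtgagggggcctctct

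The window holds 3 copies, which begin 216, 196 and 101 bases before the start. At least 1 copy was present in 2228 of 35116 windows (6.34%), at least 2 in 188 (0.535%) and at least 3 in 28 (0.0797%), and among the other genes of the group only CDKN2C held any, with 1 copy in 2 of its 3 windows.

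CDK4 in AMO1 at 6 h read 222, 217 and 192 CPM with DMSO and 219, 183 and 195 with NCP26. The groups overlapped, and the log2 fold change of -0.073 (SE 0.11, edgeR adjusted p = 0.623) had an interval of 2 SE from -0.29 to 0.14. With HFG it was -0.17 (SE 0.077, edgeR adjusted p = 0.0693), with 3 libraries below DMSO that did not reach the threshold. The single call was CFZ at 24 h, where 99.3, 78.6 and 112 CPM stood against 127, 130 and 145 with DMSO. That difference of -0.46 (SE 0.14, edgeR adjusted p = 0.04) was lost without CFZ replicate 1 or any 1 of the DMSO libraries. TSPAN31, which overlaps CDK4 and shares 39.4% of its 31-base words, read 36.02 ± 2.27 CPM with CFZ and 34.6 ± 1.77 with DMSO at 24 h, and 52.3 ± 4.5 with NCP26.

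CDK6 (ENSG00000105810, chr7:92604921-92836573, reverse strand) rose most with CFZ at 24 h. The libraries read 412, 565 and 392 CPM with CFZ and 228, 236 and 201 with DMSO, a change of 1.07 (SE 0.17, edgeR adjusted p = 0.00266) that no single library removed. At 6 h CFZ had left the gene at 182 ± 12.8 CPM (SD, n = 3) beside 167 ± 24.9. CDK6 fell with NCP26 at 24 h, to 172, 177 and 152 CPM, a change of -0.41 (SE 0.065, edgeR adjusted p = 2.98e-06), whereas HFG at 246, 244 and 260.5 lay above DMSO, a change of 0.18 (SE 0.064, edgeR adjusted p = 0.0238). The HFG call was lost without HFG replicate 3 or DMSO replicate 3 and with the GC offset (0.080), and its sign turned with a term for the set (-0.056).

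At 6 h the CDK6 calls were all higher and covered compounds of both series. In AMO1 the values were 0.44 (SE 0.096, edgeR adjusted p = 0.00488) with NCP22, 0.46 (SE 0.094, edgeR adjusted p = 0.000722) with HFG and 0.39 (SE 0.085, edgeR adjusted p = 0.0143) with halofuginol. The DMSO libraries read 164, 143 and 193 CPM, and without replicate 2, the lowest, the calls for NCP22 and halofuginol ended, the latter also without any 1 of the halofuginol libraries. In these comparisons the fold changes of all genes were correlated with GC content (r = -0.51 for NCP22, -0.32 for HFG and -0.47 for halofuginol across genes), and CDK6 has a low GC content of 39.7%. With a GC offset the CDK6 values became 0.26 with NCP22, 0.20 with HFG and 0.25 with halofuginol, of which the first was not called, and none of the NCP22 calls among the 10 genes was made. In L363-CFZr at 6 h HFG (0.59, SE 0.084, edgeR adjusted p = 2.73e-06) and halofuginol (0.56, SE 0.085, edgeR adjusted p = 0.000357) were called with near-equal levels of 384 ± 11.9 and 384 ± 2.94 CPM, both from set C against DMSO of set B, and neither was called with a term for the set. The GC trends were stronger here (r = -0.57 with HFG and -0.72 with halofuginol), and with the GC offset CDK6 was still called, at 0.25 with HFG and 0.33 with halofuginol.

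Per kilobase, CDK6 made up 20.98 ± 2.47% of CDK4 and CDK6 in AMO1 with DMSO at 24 h and 43.1 ± 9.19% with CFZ. The share across all AMO1 libraries ran from 9.54% to 53.5% (median 15.99%) and across L363-CFZr libraries from 16.96% to 69.8% (median 32.8%).

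The 3 inhibitors did not move together. CDKN1B (ENSG00000111276, chr12:12685498-12722369, forward strand), which restrains CDK2, fell in AMO1 with NCP26 and HFG at both times. At 6 h it read 203, 219 and 222 CPM with DMSO, 155, 158 and 117 with NCP26 and 136, 139 and 139 with HFG. The treated libraries lay wholly below DMSO. The changes were -0.57 (SE 0.12, edgeR adjusted p = 0.00296) and -0.60 (SE 0.074, edgeR adjusted p = 6.63e-06). At 24 h DMSO read 263, 266 and 245, NCP26 186, 192 and 179, HFG 135, 141 and 140.4 and CFZ 154, 118 and 179 CPM. The changes at 24 h were -0.47 (SE 0.055, edgeR adjusted p = 8.96e-09) with NCP26, -0.89 (SE 0.061, edgeR adjusted p = 6.33e-10) with HFG and -0.76 (SE 0.15, edgeR adjusted p = 0.00673) with CFZ, and only the NCP26 value was lost, with a term for the set (-0.45).

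In L363-CFZr no fall of CDKN1B against DMSO was called at either time. At 6 h it read 133, 138 and 122 CPM with DMSO, 134, 137 and 122 with NCP26 and 133, 153 and 132 with HFG, and these groups overlapped. The intervals of 2 SE ran from -0.18 to 0.22 for NCP26 and from -0.029 to 0.28 for HFG. At 24 h NCP26 read 153, 163 and 149.7 CPM and HFG 159, 174 and 175, against 175, 121 and 188 with DMSO. The lowest DMSO value was replicate 2, and the NCP26 libraries lay below the other DMSO libraries. They also lay below NCP22 of the same set (185, 171 and 181.5 CPM), a difference that was not called. The HFG effect on CDKN1B differed between the lines by a test of that difference at both times, given with the lines. Halofuginol at 6 h had a small rise of 0.18 (SE 0.066, edgeR adjusted p = 0.0444), lost without any 1 of 5 of the 6 libraries.

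CDKN2C (ENSG00000123080, chr1:50960745-50974634, forward strand), an INK4 inhibitor with a known role in plasma cell differentiation, fell with NCP26 in AMO1 at both times and with HFG at 6 h. DMSO at 6 h read 120.5, 143 and 147, NCP26 89.8, 89.7 and 88.0 and HFG 88.9, 97.6 and 89.1 CPM, with changes of -0.61 (SE 0.10, edgeR adjusted p = 0.000765) and -0.54 (SE 0.091, edgeR adjusted p = 0.000131). At 24 h HFG had turned upward. DMSO then read 136, 131 and 144, NCP26 74.4, 90.8 and 90.9, HFG 171, 176 and 183 and CFZ 238, 159 and 264 CPM. The changes were -0.69 (SE 0.077, edgeR adjusted p = 4.54e-09) with NCP26, 0.37 (SE 0.065, edgeR adjusted p = 8.49e-05) with HFG and 0.70 (SE 0.17, edgeR adjusted p = 0.0183) with CFZ. The CFZ call was lost without any 1 of 5 of the 6 libraries (all but CFZ replicate 2), and the NCP26 call was lost with a term for the set (-0.53).

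In L363-CFZr CDKN2C at 6 h read 362, 361 and 382 CPM with DMSO, 262, 312 and 249.7 with NCP26 and 245, 256 and 243 with HFG. All 6 treated libraries lay below DMSO. The change with NCP26 was -0.40 (SE 0.10, edgeR adjusted p = 0.0226), lost without any 1 of 5 of the 6 libraries, and that with HFG was -0.54 (SE 0.059, edgeR adjusted p = 6.24e-08), not called with a term for the set. At 24 h no compound was called against DMSO, whose libraries read 383, 217 and 429.7 CPM.

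CDKN2D (ENSG00000129355, chr19:10566460-10569059, reverse strand), the other INK4 inhibitor, rose with HFG in both lines and with NCP26 in L363-CFZr at 6 h. In L363-CFZr at 6 h it read 8.54, 6.81 and 9.01 CPM with DMSO, 10.9, 19.6 and 15.8 with NCP26 and 13.8, 15.5 and 14.96 with HFG. The changes were 0.93 (SE 0.24, edgeR adjusted p = 0.0219), lost without any 1 of the DMSO libraries, and 0.87 (SE 0.19, edgeR adjusted p = 0.000535), not called with a term for the set. In AMO1 at 6 h HFG gave 9.58, 7.47 and 7.66 CPM against 4.62, 5.94 and 4.96, a rise of 0.68 (SE 0.25, edgeR adjusted p = 0.0305) that was not called by DESeq2 or without DMSO replicate 1 or 3 or HFG replicate 1 or 3. At 24 h no compound was called against DMSO in either line.

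The related compounds were compared with each other in the same line and at the same time, which gave 114 tests of these genes over 12 comparisons. NCP26 against NCP22 was called in 18 of 38 tests, 4 higher and 14 lower. In AMO1 the calls were 4 of 10 at 6 h (24.7% of all genes, 12.6% higher and 12.2% lower) and 6 of 10 at 24 h (52.0%, 26.3% and 25.7%). In L363-CFZr they were 2 of 9 at 6 h (20.4%, 9.96% and 10.4%) and 6 of 9 at 24 h (34.1%, 16.2% and 17.9%). The comparisons at 24 h were within 1 set in each line and did not involve the DMSO libraries, and in L363-CFZr at 6 h NCP22 replicate 3 came from another set than the rest.

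At 24 h NCP26 stood lower than NCP22 for the same 4 genes in both lines. They were CCND3 (-0.73 in AMO1 and -0.78 in L363-CFZr), CCNE1 (-1.99 and -1.02), CDK6 (-0.26 and -0.61) and CDKN2C (-0.74 and -0.68). CCND2 stood higher in both (0.29 and 0.31). CCNE1 in L363-CFZr, for which no call against DMSO was made, read 6.01, 5.03 and 6.18 CPM with NCP26 and 12.8, 12.2 and 10.1 with NCP22, a difference of -1.02 (SE 0.22, edgeR adjusted p = 0.0025). CCNE2 in L363-CFZr differed by -1.33 (SE 0.26, edgeR adjusted p = 0.00137). Of these calls, the one for CDK6 in AMO1 was lost without NCP26 replicate 3. CDKN1B in AMO1 also read lower with NCP26 at 24 h, at 186 ± 6.48 CPM against 265 ± 16.2 with NCP22 (SD, n = 3). Both groups were in set B.

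At 6 h the largest difference between NCP26 and NCP22 was CCNE2 in AMO1, -1.25 (SE 0.18, edgeR adjusted p = 0.000572), with CDKN1B at -0.61 (SE 0.11, edgeR adjusted p = 0.00219) and CDKN2C at -0.47 (SE 0.086, edgeR adjusted p = 0.00225). CCND2 stood higher by 0.39 (SE 0.10, edgeR adjusted p = 0.0167), lost without NCP26 replicate 3 or any 1 NCP22 library. CDK4 did not reach the threshold in any of the 4 comparisons, with intervals of 2 SE that all lay within -0.20 and 0.35. In L363-CFZr CDKN2C (-0.35, SE 0.11, edgeR adjusted p = 0.0376) was lost without any 1 of 5 of the 6 libraries and CDKN2D (0.93, SE 0.26, edgeR adjusted p = 0.0252) without NCP22 replicate 1 or 3.

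HFG against halofuginol was called in 22 of 38 tests, 5 higher and 17 lower. The counts in AMO1 were 7 of 10 at 6 h (51.7% of all genes, 25.6% higher and 26.1% lower) and 6 of 10 at 24 h (56.6%, 27.9% and 28.7%). In L363-CFZr they were 4 of 9 at 6 h (47.3%, 23.1% and 24.2%) and 5 of 9 at 24 h (21.9%, 9.59% and 12.3%). Each of these comparisons was within 1 set. CDKN1B separated the pair in AMO1, by -0.75 (SE 0.058, edgeR adjusted p = 1.27e-08) at 6 h and -1.01 (SE 0.072, edgeR adjusted p = 1.57e-09) at 24 h, but not in L363-CFZr, where the intervals ran from -0.17 to 0.05 at 6 h and from -0.21 to 0.042 at 24 h. CCND3 was lower with HFG in all 4 comparisons, at -0.31 and -1.17 in AMO1 and -0.32 and -0.56 in L363-CFZr. Leaving out 1 library ended the calls for CCND3 except that in AMO1 at 24 h.

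For CDKN2C the direction between HFG and halofuginol in AMO1 was not the same at the 2 times. It was lower with HFG at 6 h in AMO1 (-0.56, SE 0.068, edgeR adjusted p = 3.01e-06) and in L363-CFZr (-0.56, SE 0.042, edgeR adjusted p = 5.77e-12), higher with HFG at 24 h in AMO1 (0.35, SE 0.087, edgeR adjusted p = 0.00243) and lower at 24 h in L363-CFZr (-0.23, SE 0.053, edgeR adjusted p = 0.00651, lost without HFG replicate 2). CDK6 at 24 h was higher with HFG in AMO1 (0.32) and lower in L363-CFZr (-0.52), both called. At 6 h CDK6 did not reach the threshold in either line, and the intervals of 2 SE were narrow, from -0.047 to 0.18 in AMO1 and from -0.039 to 0.11 in L363-CFZr. The other calls were CCND2, CCNE1, CCNE2 and CDK4 in AMO1 at 6 h (0.43, -0.49, -0.84 and -0.16), CCND1 and CCNE1 in AMO1 at 24 h (-1.36 and -1.51), CCNE2 and CDKN2D in L363-CFZr at 6 h (-0.56 and 0.79) and CCND2 and CCNE2 there at 24 h (0.17 and -0.92). Of these, CCNE1 (without HFG replicate 2) and CDK4 (without HFG replicate 3 or halofuginol replicate 1 or 2) in AMO1 at 6 h, and CCND2 (any 1 of 5 of the 6 libraries) and CCNE2 (HFG replicate 2 or halofuginol replicate 1) in L363-CFZr at 24 h, depended on 1 library.

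**Figure D4:**
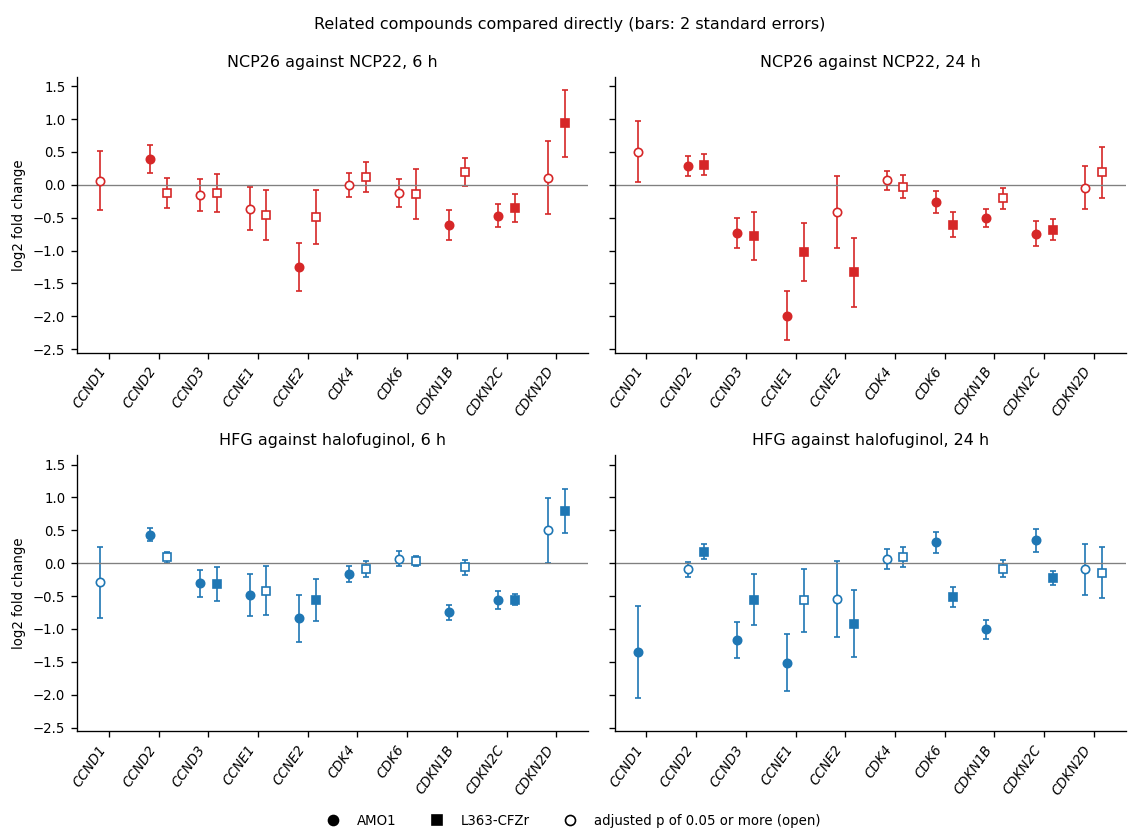
log2 fold change of NCP26 against NCP22 (upper panels) and of HFG against halofuginol (lower panels) at 6 h and 24 h for each gene, with circles for AMO1, squares for L363-CFZr, bars of 2 SE, and open symbols for an adjusted p of 0.05 or more by edgeR. CCNE1 in AMO1 at 24 h lay lowest in both pairs, at -1.99 and -1.51, and the bars of CDK4 stayed within -0.28 and 0.35.

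NCP26 and HFG, which bind the synthetase in different ways, were compared last. At 6 h edgeR called 0 of 10 genes in AMO1 (0.260% of all genes) and 0 of 9 in L363-CFZr (0%). A single gene had an unadjusted p under 0.05 in each, CCND1 in AMO1 and CDK6 in L363-CFZr, and DESeq2 called 0 in both. At 24 h 5 of 10 were called in AMO1 (44.9%) and 1 of 9 in L363-CFZr (12.9%). The AMO1 calls were CCND1 and CCND2, given above, CDKN1B at 0.40 (SE 0.061, edgeR adjusted p = 3.45e-05), CDK6 at -0.60 (SE 0.064, edgeR adjusted p = 5.71e-07) and CDKN2C at -1.07 (SE 0.078, edgeR adjusted p = 3.52e-09). CDKN2C was also the single call in L363-CFZr, at -0.47 (SE 0.061, edgeR adjusted p = 0.00041), with 238, 263 and 248 CPM with NCP26 and 361, 334 and 347 with HFG. All of the calls between NCP26 and HFG remained when any 1 library was left out, although that of CDKN2C in L363-CFZr was not made in a fit of all groups of the line. The comparisons at 24 h were within 1 set, whereas that of 6 h in L363-CFZr crossed sets B and C. Across the 3 pairs, a difference that missed the threshold does not show that the compounds act alike.

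The lines themselves differed in 9 of 10 genes with DMSO at 6 h (60.2% of all genes) and 7 of 10 at 24 h (39.9%). The lines came from different sets at both times, and set and line cannot be told apart. CDKN2C was higher in L363-CFZr, at 368 ± 11.8 CPM against 137 ± 14.2 in AMO1 at 6 h (SD, n = 3), a log2 difference of 1.41 (SE 0.08, edgeR adjusted p = 4.65e-12). CCND1 was lower in L363-CFZr, with 1, 2 and 5 counts against 21, 27 and 27 in AMO1 at 6 h. At 24 h the counts were 4, 3 and 2 against 26, 31 and 54. The gene passed the filter on low counts only through AMO1, where it is high. Its calls at both times, included in the counts above, are not independent of that filter. The log2 difference at 6 h was -3.48 (SE 0.40) and is given as a size only. The other differences at 6 h were lower values in L363-CFZr for CCNE1 (-1.29), CDK4 (-0.74), CDKN1B (-0.74), CCND3 (-0.41) and CCND2 (-0.16), and higher values for CDK6 (0.63) and CDKN2D (0.64). CCND2, CCND3 and CDKN2D lost their calls without 1 of several libraries, CCND2 without any except AMO1 replicate 3, CCND3 without AMO1 replicate 1 or L363-CFZr replicate 1 or 2, and CDKN2D without replicate 1 or 3 of either line. At 24 h the called genes were CCND1 (-3.42), CCND3 (-1.25), CCNE1 (-1.11), CDK4 (-0.69), CDKN1B (-0.67), CDK6 (1.35) and CDKN2C (1.32). CDK4 lost its call without any 1 of the AMO1 libraries and CDKN1B without AMO1 replicate 1 or 2.

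The effect of a compound was compared between the lines with an interaction term. Of 10 genes, 0 differed for NCP26 at 6 h (2.71% of all genes), 1 at 24 h (CCNE1, 5.41%), and for HFG 2 at 6 h (CCND2 and CDKN1B, 20.7%) and 2 at 24 h (CDK6 and CDKN1B, 16.9%). CCND1 was among the 10 only through its AMO1 libraries and was not called. For NCP26 at 6 h, where edgeR called 0, CCND2 and CDKN1B had an unadjusted p under 0.05 and DESeq2 called 2. CDKN1B was the gene whose HFG effect differed at both times, by 0.73 (SE 0.11, edgeR adjusted p = 4.58e-05) at 6 h and 0.95 (SE 0.18, edgeR adjusted p = 0.00366) at 24 h (L363-CFZr minus AMO1). The HFG effect on CCND2 differed at 6 h by -0.48 (SE 0.076, edgeR adjusted p = 0.00011), not called in a fit of all 66 libraries. CCNE1 with NCP26 at 24 h lost its call without any 1 of 10 of the 12 libraries, and CDK6 with HFG at 24 h without AMO1 DMSO replicate 3. HFG and DMSO came from different sets in AMO1 at 24 h and in L363-CFZr at 6 h.

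The difference between the times, read in DMSO, was called for 5 of 10 genes in AMO1 (46.5% of all genes) and 1 of 9 in L363-CFZr (14.8%). In AMO1 both DMSO groups were in set A. In L363-CFZr that of 6 h was in set B and that of 24 h in set C, so time and set cannot be told apart there. Storage differed with time as well in AMO1 and is not described for L363-CFZr. CDKN2D in AMO1 read 4.62, 5.94 and 4.96 CPM at 6 h and 12.1, 11.6 and 13.6 at 24 h, a difference of 1.27 (SE 0.23, edgeR adjusted p = 8.8e-05). CDK4 was lower at 24 h, a difference of -0.64 (SE 0.078, edgeR adjusted p = 5.99e-07), and CCND2 (0.37), CDK6 (0.41) and CDKN1B (0.27) were higher. In L363-CFZr CDK6 was higher at 24 h by 1.11 (SE 0.28, edgeR adjusted p = 0.0404), a call that ended without any 1 of the 6 h libraries, and without DMSO replicate 2 of 24 h the difference was 0.74.

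The effect of a compound changed between the times in AMO1 for 3 of 10 genes with NCP26 (17.5% of all genes), 6 of 10 with HFG (39.6%) and 3 of 10 with CFZ (19.6%). In L363-CFZr the counts were 0 of 9 with NCP26 (0.691%) and 1 of 9 with HFG (12.3%), and for NCP26, where edgeR called 0, CCNE2 and CDK6 had an unadjusted p under 0.05 and DESeq2 called 0. CCNE1 fell further at 24 h than at 6 h with NCP26, a difference between the times of -1.49 (SE 0.26, edgeR adjusted p = 0.000678). CDKN2C with HFG moved from lower to higher, by 0.94 (SE 0.11, edgeR adjusted p = 2.01e-06), and CCND2 with HFG from higher to lower, by -0.72 (SE 0.072, edgeR adjusted p = 2.57e-07). The AMO1 comparisons of this kind also crossed the sets at 24 h, and that of HFG in L363-CFZr crossed sets B and C at 6 h.

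Other genes of the same machinery were read from a list of 36 genes of the G1 to S transition outside the 10. With DMSO as the reference in AMO1, 4 rose and 8 fell of 34 tested with NCP26 at 6 h (37.3% of all genes were called, 18.1% higher and 19.2% lower). With HFG 6 rose and 12 fell of 34 (54.3%, 27.7% and 26.6%), and with CFZ 8 rose and 11 fell of 34 (26.9%, 14.1% and 12.8%). At 24 h 6 rose and 19 fell of 35 with NCP26 (60.7%, 29.8% and 30.9%). With HFG 3 rose and 20 fell of 34 (59.0%, 28.5% and 30.5%), and with CFZ 1 rose and 8 fell of 34 (27%, 13.1% and 14%). The called share of the list was near that of all genes with NCP26 and HFG at 6 h and with CFZ at 24 h. The median log2 fold change of the list at 24 h was -0.35 with NCP26 and -0.45 with HFG, beside 0.0075 and -0.0019 over all genes. CDKN1A (p21), the CIP/KIP inhibitor related to CDKN1B, had the largest change of the list in AMO1 at 6 h, at 68.4 ± 0.763 CPM with NCP26 and 60.6 ± 5.89 with HFG against 421 ± 27.2 with DMSO at 6 h (SD, n = 3), or -2.61 (SE 0.10, edgeR adjusted p = 1.32e-08) and -2.77 (SE 0.089, edgeR adjusted p = 1.64e-12) on the log2 scale. CDKN1C (p57), the remaining CIP/KIP gene, fell by 1.78 with NCP26 and by 1.69 with HFG, and CKS2, a small subunit that binds cyclin-dependent kinases, by 1.35 and 1.40 on the log2 scale. CDKN2B, an INK4 inhibitor of the list at 3.42 ± 0.769 CPM with DMSO at 6 h, went the other way in AMO1. It rose by 1.266 with NCP26 and by 1.285 with HFG and with CFZ at 6 h. At 6 h the gene passed the filter on low counts through the treated libraries, where it is high. Its rises and calls at 6 h, counted above, are not independent of that filter, and their size is uncertain. At 24 h CDKN2B rose by 0.80 with NCP26 and by 0.93 with HFG, and CFZ was not called. At 24 h in AMO1 CDKN1A fell by 0.34 with NCP26 and by 2.19 with HFG. With CFZ it rose at 6 h, from 421 ± 27.2 to 736 ± 41.7 CPM, and fell by 1.43 at 24 h, and CKS2 rose by 0.61 with CFZ at 6 h. TFDP1, a partner of E2F, fell in AMO1 with NCP26, HFG and CFZ at both times. It was at -0.76, -1.05 and -0.79 at 6 h and at -1.14, -1.34 and -0.98 at 24 h. In L363-CFZr TFDP1 was called with HFG at 6 h alone (-0.20), not with NCP26 (-0.24 at 6 h, -0.38 at 24 h) or HFG at 24 h (-0.20). TFDP2, another partner of E2F on the list, went the other way where it was called. It was higher with NCP26 in AMO1 at 24 h (0.27) and with NCP26 (0.56) and HFG (0.65) in L363-CFZr at 6 h. CDKN1A in L363-CFZr read 6.11 ± 1.78 CPM with DMSO at 6 h. It was higher by 1.17 with NCP26 and 0.97 with HFG at 6 h and by 1.18 with NCP26 at 24 h, all called by edgeR. Of the 34 list genes tested in L363-CFZr, 3 rose and 4 fell with NCP26 at 6 h (18.8% of all genes, 9.81% higher and 8.99% lower). With HFG at 6 h 12 rose and 11 fell (54.5%, 26.9% and 27.5%). At 24 h 1 rose and 8 fell with NCP26 (7.09%, 2.71% and 4.38%), and 0 rose and 2 fell with HFG (1.17%, 0.592% and 0.573%).

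Genes of DNA replication under E2F control moved mostly in 1 direction. Of 14 tested in AMO1 at 6 h, 10 fell and 0 rose with NCP26 (37.3% of all genes were called, 19.2% lower). With HFG 12 fell and 0 rose (54.3% called, 26.6% lower). The medians were -0.41 and -0.65, beside -0.011 and 0.013 over all genes. At 24 h 13 fell and 0 rose with each (60.7% and 59.0% of all genes called, 30.9% and 30.5% lower). The medians were then -1.16 and -1.18, beside 0.0075 and -0.0019 over all genes. CDT1, which licenses replication origins, read 28.4 ± 0.923 CPM with NCP26 and 29.1 ± 1.34 with HFG against 121 ± 2.42 with DMSO at 24 h, and MYBL2, a late G1 transcription factor, fell by 2.08 with NCP26 on the log2 scale. With CFZ 5 fell and 1 rose at 6 h (26.9% of all genes, 12.8% lower), and 7 fell and 0 rose at 24 h (27%, 14% lower). The median at 24 h was -0.41, beside 0.0147 over all genes. In L363-CFZr at 24 h 9 of 14 fell with NCP26 (7.09% of all genes, 4.38% lower) and 3 of 14 with HFG (1.17%, 0.573% lower). The medians were -0.87 and -0.69, beside -0.00198 and -0.0161 over all genes. At 6 h 3 fell and 1 rose with NCP26 (18.8%, 8.99% lower), and 10 fell and 1 rose with HFG (54.5%, 27.5% lower).

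A list of amino acid response genes, which ATF4 and its partners control, had 9 of 10 genes higher and 1 lower with NCP26 and with HFG in AMO1 at 6 h and at 24 h. Of all genes, 37.3% and 54.3% were called with NCP26 and HFG at 6 h (18.1% and 27.7% higher), and 60.7% and 59.0% at 24 h (29.8% and 28.5% higher). In L363-CFZr 9 of 10 were higher with either compound at 6 h. Of all genes, 18.8% were called there with NCP26 (9.81% higher) and 54.5% with HFG (26.9% higher). At 24 h 8 were higher with NCP26 (7.09%, 2.71% higher) and 6 with HFG (1.17%, 0.592% higher). ATF3 in AMO1 rose from 14.7 ± 2.09 CPM with DMSO to 110 ± 14.2 with NCP26 and 181 ± 8.22 with HFG at 6 h. With NCP22 4 of 9 were higher in AMO1 at 6 h (13.5% of all genes, 7.42% higher) and 0 of 10 were called in the other 3 comparisons with DMSO (0% in each). With CFZ 9 of 10 were higher at 6 h (26.9%, 14.1% higher), and at 24 h 3 were higher and 2 lower (27%, 13.1% higher and 14% lower). Halofuginol had 3 of 10 higher in AMO1 at 6 h (3.62%, 2.6% higher) and 5 of 10 lower in L363-CFZr at 6 h (25.8%, 12.2% lower). At 24 h it had 0 called (0.183% of all genes in AMO1 and 0% in L363-CFZr).

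The order of the 22 group means was read for each gene, with the spread of the libraries. CCNE1 ran from 26.8 ± 2.29 CPM in AMO1 with DMSO at 6 h to 5.74 ± 0.620 in L363-CFZr with NCP26 at 24 h, and CDKN2C from 405 ± 8.56 in L363-CFZr with halofuginol at 24 h to 85.4 ± 9.53 in AMO1 with NCP26 at 24 h. Of the 21 neighbours in each order, libraries of adjacent groups did not overlap in 4 for CCND2 and CDKN2C, 2 for CDKN1B and 1 for each of the other 7 genes, so most adjacent groups did not differ beyond their spread.

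Likeness between genes was taken over the 22 group means, each line centred on its own mean, and is given without a test because the groups share lines, sets and controls. CCND1 was left out for its low level. The genes most like CCND3 among 9523 were TMED3 (r = 0.953), CD79B (0.923) and MYB (0.92), and those most like CCNE1 were TRIP13 (0.945), TDP1 (0.932) and RACGAP1 (0.924). CDK4 was most like ODC1 (0.959), RNASEH1 (0.942) and EXOSC7 (0.941), and CDKN2C most like ADM (0.954), H3-3A (0.927) and CHEK2 (0.925). For CDKN1B they were LITAF (0.946), ANKRD37 (0.923) and ARGLU1 (0.918), for CDK6 ONECUT2 (0.938), PHTF2 (0.9) and TMED8 (0.898), for CDKN2D GOLGA1 (0.918), ZER1 (0.902) and IGIP (0.899), for CCNE2 HMGB3 (0.91), MSANTD3 (0.898) and FAM111B (0.891), and for CCND2 TLE3 (0.874), ZBTB2 (0.858) and IKZF3 (0.857). Among the 10 genes themselves the highest correlation was CCND3 with CCNE1 (r = 0.796) and the lowest CCND2 with CDKN2C (r = -0.735), and CDK4 ran against CDK6 (r = -0.644) and CDKN2D (r = -0.648).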

How the data were processed

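RNA was measured by poly(A)-selected, directional, paired-end RNA-seq of 66 libraries, 3 in each of 22 groups formed from the labelled line, treatment and time. Per the study's methods, the authors pseudo-aligned reads with kallisto to a transcriptome on GRCh38, whereas the submitters' processing notes name hg19, and deposited whole-number counts per gene, not normalized. The kallisto version, the use of strand and the step from transcripts to gene counts was in each case not given in the sources used here, and kallisto, which matches words of 31 bases, divides reads from sequence shared by overlapping genes between them by likelihood.

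The counts were tested with the quasi-likelihood test of edgeR 4.0.16 in R 4.3.3, after filterByExpr (minimum count 10, minimum total 15) and TMM scaling. Each comparison was fitted on its own groups, 6 libraries for 2 groups and 12 for an interaction, and p-values were adjusted by Benjamini-Hochberg over all genes of that fit, with a threshold of 0.05. SE was taken from the fold change and its quasi-likelihood F statistic. Files were read with Python 3.11.15, numpy 2.4.6 and pandas 2.3.3, and figures were drawn with matplotlib 3.10.9. Of the 20167 identifiers, 95.7% were matched to GENCODE v44, which gave positions and lengths. No library repeated another of its own group (66 replicate combinations compared, 0 identical), and libraries of different groups were not compared. The scripts were tested on simulated counts.

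Alternatives were DESeq2 1.42.0 size factors and its Wald test, no filter, a replicate block, a GC offset (lowess span 0.3), all groups of a line in one fit with and without a term for the set, and leaving out each library. Names in the text follow a rule, namely the 10 genes in every comparison, at most 6 genes of the lists for each of the contrasts of these agents (NCP26, HFG, CFZ) against DMSO by size of change, called, without overlap and at a mean of at least 5 CPM, and the 3 genes most like each of the 10. The genes and lists were chosen with earlier results of these data known. LTO1, INTS8 and TSPAN31 are named as neighbours that share sequence with a member, and the E-box was chosen after its window was seen. CDKN2B is also named, as a list gene that read higher where other inhibitors of the list fell, with calls at 6 h that are not independent of the filter. TFDP1 is given for NCP26, HFG and CFZ. TFDP2 is named beside TFDP1 as another partner of E2F on the list.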

Additional observations from a re-analysis of the deposited data

Results flagged for a closer look

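An interaction term of edgeR differed from 0 at an adjusted p under 0.05 for 18 effects of a compound on these genes, 5 between the lines and 13 between the times, and each such effect is given here as a value on the log2 scale. Depth, set and storage moved with line or time, and their part was not tested.

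Between the lines (L363-CFZr minus AMO1) the NCP26 effect at 24 h differed for CCNE1 by 1.06 (SE 0.28, edgeR adjusted p = 0.0463). The HFG effect at 6 h differed for CCND2 by -0.475 (SE 0.076, edgeR adjusted p = 0.00011) and for CDKN1B by 0.727 (SE 0.11, edgeR adjusted p = 4.58e-05). At 24 h the HFG effect differed for CDK6 by -1.15 (SE 0.29, edgeR adjusted p = 0.0176) and for CDKN1B by 0.951 (SE 0.18, edgeR adjusted p = 0.00366). The CCNE1 value lost its call without any 1 of 10 of its 12 libraries (all but L363-CFZr DMSO replicates 1 and 2 of 24 h), and that of CDK6 without AMO1 DMSO replicate 3.

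Between the times (24 h minus 6 h) in AMO1, the NCP26 effect differed for CCND3 by -0.553 (edgeR adjusted p = 0.0199), for CCNE1 by -1.49 (edgeR adjusted p = 0.000678) and for CDK6 by -0.697 (edgeR adjusted p = 0.00268). The HFG effect in AMO1 differed for CCND2 by -0.722 (edgeR adjusted p = 2.57e-07), for CCND3 by -0.678 (edgeR adjusted p = 0.00202), for CCNE1 by -0.824 (edgeR adjusted p = 0.0225), for CDK4 by 0.334 (edgeR adjusted p = 0.0166), for CDKN1B by -0.26 (edgeR adjusted p = 0.0277) and for CDKN2C by 0.939 (edgeR adjusted p = 2.01e-06). The CFZ effect differed for CCND3 by -0.607 (edgeR adjusted p = 0.0168), for CDK6 by 0.923 (edgeR adjusted p = 0.00656) and for CDKN1B by -0.792 (edgeR adjusted p = 0.00568). In L363-CFZr the HFG effect differed for CDK6 by -1.53 (edgeR adjusted p = 0.01). Its 6 h part compared HFG of set C with DMSO of set B. This value and the CDK6 difference between the lines at 24 h both use the L363-CFZr DMSO libraries of 24 h. There CDK6 read 823 CPM in replicate 2 and 432 and 436 in the others. The NCP26 value of CCND3 was not called without NCP26 replicate 1 of 24 h, NCP26 replicate 3 of 6 h or DMSO replicate 2 of 6 h, the HFG value of CCNE1 without DMSO or HFG replicate 3 of 24 h, and the HFG value of CDKN1B without any 1 of 6 of its 12 libraries (DMSO replicates 1 and 2 and HFG replicates 1 and 3 of 24 h, and DMSO replicate 1 and HFG replicate 3 of 6 h).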

How the results depend on the processing

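Of the 50 called changes against DMSO, 50 were called with DESeq2 size factors, 49 without the filter, 45 with the replicate block, 42 with the GC offset, 41 with DESeq2's Wald test (2 had no adjusted p there) and 34 with a term for the set, and 234 of 300 values remained called with 1 library left out. With the term for the set CCND2 with NCP26 in AMO1 at 24 h turned to -0.14 and CDK6 with HFG there to -0.056, a term that only the CFZ libraries of 24 h can estimate in AMO1. Same-numbered replicates did not deviate together (0 of 34 comparisons with every correlation over 0.1, from -0.38 to 0.355), so the block pairs nothing the labels define.

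The 9 calls against DMSO in L363-CFZr at 6 h became 2 with the set term, 5 with the replicate block and 5 to 11 with 1 library left out, the fewest without DMSO replicate 1 or 3. The 1 call there at 24 h became 10 in the fit of all groups of the line, with or without the set term, 3 with DESeq2's Wald test, 0 with the replicate block, and 0 to 10 with 1 library left out, 10 without DMSO replicate 2 and 0 without DMSO replicate 1 or 3 or any 1 NCP26 library. The 5 differences of an effect between the lines became 9 in a fit of all 66 libraries, and 3 to 9 with 1 library left out, 3 without AMO1 DMSO replicate 3 and 9 without L363-CFZr DMSO replicate 2, both of 24 h. The other totals stayed within 1.5 times of their values under every alternative run. Shares of all genes called under the alternatives are not given here. Depth limits CCND1 most, with at most 6 counts per L363-CFZr library.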
